A study of Mus musculus with 3 samples.

Results

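The genes of the vacuolar proton pump (V-ATPase), of lysosomal membrane proteins and of lysosomal hydrolases were followed in mouse melan-a cells, an immortalized line of pigmented melanocytes. The 46 genes were taken by symbol from a list drawn up by function, and all 46 were among the 22698 Ensembl genes of the RNA-seq. They comprise 7 subunits of the membrane sector of the pump (V0), 9 of its cytosolic sector (V1), 2 accessory subunits, 5 lysosomal membrane proteins, 3 luminal carrier or precursor proteins, 11 glycosidases, 3 sulfatases, 4 lipid hydrolases and 2 peptidases. All 3 libraries belong to a single condition: untreated melan-a cells, labelled as strain C57BL/6J and as melanocytes from Ink4a-ARF-/- mice, grown in serum with a phorbol ester (12-O-tetradecanoylphorbol 13-acetate) and cholera toxin. The libraries are labelled replicates 1, 3 and 4. They come from 1 line, and nothing in the sources used here says that they came from separate cultures, so the spread between them may be technical. There is no second condition, and what follows is the level of each gene, its spread over the 3 libraries and the use of alternative subunits.

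The V-ATPase spends ATP to move protons into lysosomes, endosomes and other acidic compartments. Its V1 sector hydrolyses ATP in the cytosol, and its V0 sector carries the protons through the membrane on a ring of small c subunits. Most lysosomal hydrolases work best at the low pH this pump maintains, and inherited loss of many of them gives a lysosomal storage disease. In melanocytes the melanosome is a lysosome-related organelle, it carries V-ATPase, and its pH affects the activity of tyrosinase, the key enzyme of melanin synthesis. Many lysosomal genes carry a CLEAR element near their start, a binding site for TFEB, TFE3 and the melanocyte factor MITF that is built around the E-box CACGTG.

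The promoters of these genes are shown first, because they are the regulatory sequence the gene group is best known for. RefSeq promoters (GRCm38.p6, 250 bases before to 50 after each start) were at hand for 39 of the 46 genes, and CACGTG, which reads the same on both strands, was found in those of 12 (30.8%). The same letters occurred in the promoters of 8.09% of all 27025 genes with one, and of 12.6% of the 7191 that reached 1 FPKM in every replicate. The genes with CACGTG were *Lamp1* (4 matches), *Atp6v0b*, *Gla* and *Cln3* (2 each), and *Atp6v0d1*, *Atp6v0e*, *Atp6v1a*, *Lgmn*, *Gaa*, *Naglu*, *Glb1* and *Arsa* (1 each). Stretches of 7 of these promoters are printed below with each CACGTG in capitals, 5′ to 3′ on the strand of the gene: 4 are from pump subunits of both sectors besides the most highly expressed gene of the group, *Lamp1*, and the 2 lowest with several matches, *Gla* and *Cln3*.
Lamp1, chr8:13159070-13159181, plus strand: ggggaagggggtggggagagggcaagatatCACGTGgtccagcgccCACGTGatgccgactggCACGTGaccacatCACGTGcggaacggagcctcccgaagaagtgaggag
Atp6v0b, chr4:117887312-117887395, minus strand: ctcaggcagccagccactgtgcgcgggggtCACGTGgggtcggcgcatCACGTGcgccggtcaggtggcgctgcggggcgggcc
Atp6v0d1, chr8:105566032-105566097, minus strand: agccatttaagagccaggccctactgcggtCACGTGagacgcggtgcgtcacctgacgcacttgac
Atp6v1a, chr16:44139355-44139420, minus strand: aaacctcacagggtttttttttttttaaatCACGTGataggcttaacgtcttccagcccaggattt
Atp6v0e, chr17:26676369-26676434, plus strand: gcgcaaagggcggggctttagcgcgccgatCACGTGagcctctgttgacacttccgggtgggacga
Gla, chrX:134601164-134601255, minus strand: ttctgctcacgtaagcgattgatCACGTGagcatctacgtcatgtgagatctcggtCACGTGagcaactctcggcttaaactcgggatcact
Cln3, chr7:126583322-126583415, minus strand: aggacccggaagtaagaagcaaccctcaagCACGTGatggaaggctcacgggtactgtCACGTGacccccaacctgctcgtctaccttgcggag

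The 18 matches lay between positions −227 and 4 relative to the annotated start, with a median of −48.5, and 11 were within the 100 bases before the start. Those of *Lamp1* stood at −61, −45, −28 and −15. A match is a description of the letters, and binding was not measured here. The longer palindrome TCACGTGA, which contains CACGTG, occurred in 5 promoters (12.8%), against 1.12% of all genes and 2.57% of genes at 1 FPKM or more. TCACGTGA preceded by G and followed by C, the full CLEAR palindrome, occurred in 1, that of *Cln3* (2.56%, against 0.37% and 0.932%). The M-box letters TCATGTG, searched on both strands, occurred in 6 (15.4%, against 4.31% and 2.52%). The TFAP2 letters GCCNNNGGC occurred in 8 (20.5%), against 18.5% of all genes and 30.4% of genes at 1 FPKM or more. CACGTG was found in 4 of the 13 pump genes with a promoter and in 8 of the other 26, which is 30.8% of each. Its presence did not go with a higher level within the group: the median was 45.6 FPKM for the 12 genes with CACGTG and 69.4 FPKM for the 27 without it.

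Before the levels, the libraries were compared. FPKM is the number of reads per kilobase of gene, relative to library size, and here also scaled between libraries. The scaled libraries corresponded to 53900000, 47000000 and 66300000 reads in replicates 1, 3 and 4, estimated from the steps between low values. At these depths the 44 genes of the group that were measured rest on at least 1100 reads per library each. The difference between replicates 3 and 4 moved with the GC content of the transcripts: across the 10006 genes with a GC value, Spearman's rho between GC content and the log2 ratio of replicate 3 to replicate 4 was 0.78. Over the 44 measured genes of the group it was 0.79. Genes share the libraries and are not independent replicates. GC-corrected values, in which the median of each of 20 GC bins was brought to a common level, are given below for some comparisons between libraries. The other values are as deposited. After the correction rho was near 0 over all genes and −0.3 over the group. All 7 melanocyte markers reached 1 FPKM (*Tyrp1*, 3140 ± 434 FPKM, SD, n = 3) and their sum ran from 5710.73 to 6556.83 FPKM. None of 4 leukocyte markers did, with a sum of 0.08 to 0.14 FPKM, nor did 4 keratinocyte, 2 endothelial and the 2 of 3 listed osteoclast markers found by symbol (sums of 0.36 to 0.70, 0.01 and 0.05 to 0.07 FPKM). Of 4 fibroblast markers 1 did, *Col1a1*, with a sum of 1.58 to 1.95 FPKM. *Ptprc*, *Cd3e* and *Krt1* were at 0 in all libraries. In bulk RNA, more cells of a type and more RNA per cell cannot be told apart.

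Of the 46 genes, 44 reached at least 1 FPKM in every replicate, where 44.1% of all genes did. The exceptions were *Atp6v0d2* and *Atp6v1b1*. The highest 10.0% of all genes, which starts at 30.1 FPKM and is called the top decile below, held 33 of the 46. The median over the group was 51.6 FPKM, and the median percentile among all genes was 94.2. Above 100 FPKM lay 12 of the genes, the lowest of them *Atp6v0c* at percentile 97.6 among all genes. Pump genes and the other lysosomal genes lay at similar ranks: 14 of 18 and 19 of 28 were in the top decile. No set test was applied, since the genes were chosen with results of these data known.

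**Figure D1:**
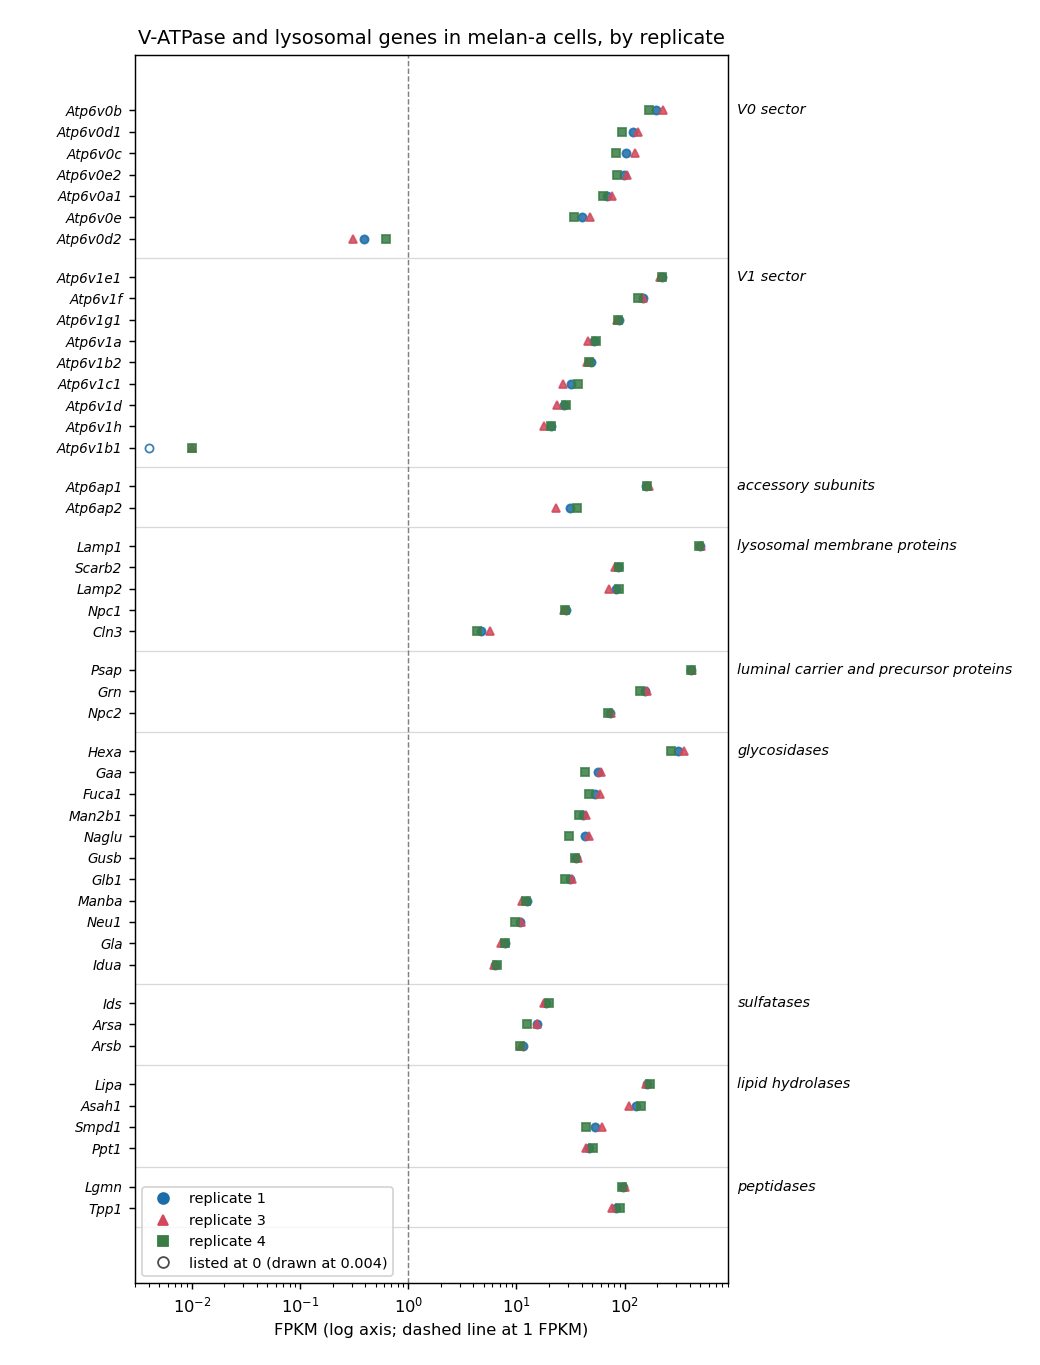
FPKM in replicates 1, 3 and 4 (log axis) of the V-ATPase and lysosomal genes, ordered by functional group; each point is 1 library, and an open circle marks a gene listed at 0. *Lamp1* lies highest near 498 FPKM, and *Atp6v0d2* and *Atp6v1b1* lie below 1 FPKM.

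In the V0 sector, 6 of 7 subunits were measured, and they covered a 4.87-fold range. *Atp6v0b* (chr4:117556931-117559938 in mm9), a c″ subunit of the proton-carrying ring, was the highest at 196.54, 227.86 and 168.98 FPKM in replicates 1, 3 and 4 (198 ± 29.5, SD, n = 3). Exons of another gene lie opposite 11.8% of its exons, and whether counting used the strand is not given in the sources used here. *Atp6v0c* (chr17:24300833-24306647), the main ring subunit c, read 102.55, 125.22 and 83.63 FPKM. As deposited it had the largest ratio of highest to lowest library among the measured V0 genes. After GC correction its ratio was 1.22, and the largest was 1.74, of *Atp6v0e*. The replicates of *Atp6v0b* and *Atp6v0c* did not overlap, and *Atp6v0b* exceeded *Atp6v0c* 1.92 ± 0.1 times. That order depended on the gene length used: computed per longest transcript the ratio was 2.98, and per shortest full coding transcript it was 0.925. The coding sequence of *Atp6v0c* also has copies of at least 97% identity elsewhere in the mm9 genome that cover all of its 468 bases, so reads could be split or lost there, and its level is uncertain. *Atp6v0d1* (chr8:108048365-108089947), which couples the ring to the central stalk, read 119.16, 133.79 and 95.16 FPKM. Its paralog *Atp6v0d2*, known from osteoclasts, kidney and epididymis, read 0.39, 0.31 and 0.62 FPKM, under 1 FPKM but above the 0.0235 FPKM that 3 reads come to in the shallowest library. *Atp6v0a1* (chr11:100870766-100925033), the large a subunit that holds the proton half-channels, read 69.31, 76.16 and 62.80 FPKM. The small e subunits *Atp6v0e2* and *Atp6v0e* read 97.70, 104.59 and 85.11 FPKM and 40.03, 47.94 and 33.94 FPKM.

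In the V1 sector, 8 of 9 subunits were measured, over an 11.0-fold range. *Atp6v1e1* (chr6:120745263-120772703), a subunit of the peripheral stalks, was the highest at 218.93, 213.03 and 221.20 FPKM (218 ± 4.22). *Atp6v1h* (chr1:5073254-5152630), a regulatory subunit present once in the complex, was the lowest of those measured at 20.78, 17.91 and 20.68 FPKM (19.8 ± 1.63), and *Atp6v1e1* exceeded it 11.0 ± 0.743 times. The catalytic hexamer is made of A and B subunits in equal number. *Atp6v1a* read 52.00, 45.49 and 54.27 FPKM and *Atp6v1b2* read 48.55, 44.92 and 46.85 FPKM. Their ratio was 1.08 ± 0.0733, and the replicates of the pair overlapped. Per longest transcript it was 0.82. *Atp6v1b1*, the B subunit known from kidney and inner ear, was at 0, 0.01 and 0.01 FPKM, below the 0.0331 FPKM of 3 reads. *Atp6v1f* and *Atp6v1g1*, of the central and peripheral stalks, stood at 144 ± 8.53 and 86.6 ± 2.2 FPKM. For both, near-identical copies cover the whole coding sequence elsewhere in the genome, so their levels are uncertain. *Atp6v1d* of the central stalk read 27.54, 23.47 and 28.57 FPKM. *Atp6v1c1*, which links the stalks, read 31.82, 27.04 and 36.96 FPKM. Its highest library was 1.37 times its lowest, the largest such ratio among the measured V1 genes as deposited. After GC correction its ratio was 1.11, and the largest was 1.20, of *Atp6v1d*. *Atp6ap1*, an accessory subunit needed for assembly, read 157.46, 168.17 and 161.53 FPKM. *Atp6ap2*, the (pro)renin receptor, read 31.54, 23.26 and 36.44 FPKM, and copies elsewhere cover 36.8% of its coding sequence.

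Several pump subunits are encoded by more than one gene, and the use of these alternatives was compared as shares of each family's summed FPKM. In the a family, which places the pump in different membranes, *Atp6v0a1* held 61.5% ± 1.29 (SD, n = 3). *Tcirg1* (a3), known for the osteoclast pump, held 19.6% ± 1.08 at 20.87, 23.39 and 21.74 FPKM, and *Atp6v0a2*, known from Golgi and endosomes, held 18.7% ± 0.185 at 20.67, 22.77 and 19.78 FPKM. The replicates of *Tcirg1* and *Atp6v0a2* overlapped as deposited, but *Tcirg1* was 1.54 times *Atp6v0a2* per longest and 1.74 times per shortest full coding transcript. *Atp6v0a4*, known from kidney, held 0.234% ± 0.061 at 0.30, 0.20 and 0.28 FPKM. *Atp6v0a1* exceeded *Tcirg1* 3.32, 3.26 and 2.89 times in replicates 1, 3 and 4. *Atp6v0d1* held 99.6% ± 0.218 of its family, with 306, 432 and 153 times the level of *Atp6v0d2*. *Atp6v1g1* held 94.8% ± 0.333 and exceeded *Atp6v1g2*, the form known from neurons, 19.9, 17.7 and 17.6 times, with *Atp6v1g2* at 4.47, 4.79 and 4.89 FPKM. In the B, C and E families the second gene was at or below the level of 3 reads: *Atp6v1c2* was at 0.01, 0.01 and 0 FPKM and *Atp6v1e2* at 0 in every library, so no fold is given. *Atp6v1g3* was also at 0 in every library. In 4 families (a, d, e and G) the second isoform was above 0 in every library, and the leader was higher in 3 of 3 replicates. The leader and the next gene were picked by mean share in these same libraries. An exact two-sided sign-flip permutation test gave p = 0.25 for each (0.25 after Benjamini-Hochberg adjustment over the 4 families). That is the smallest p that 3 pairs allow, so the test cannot settle the order.

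**Figure D2:**
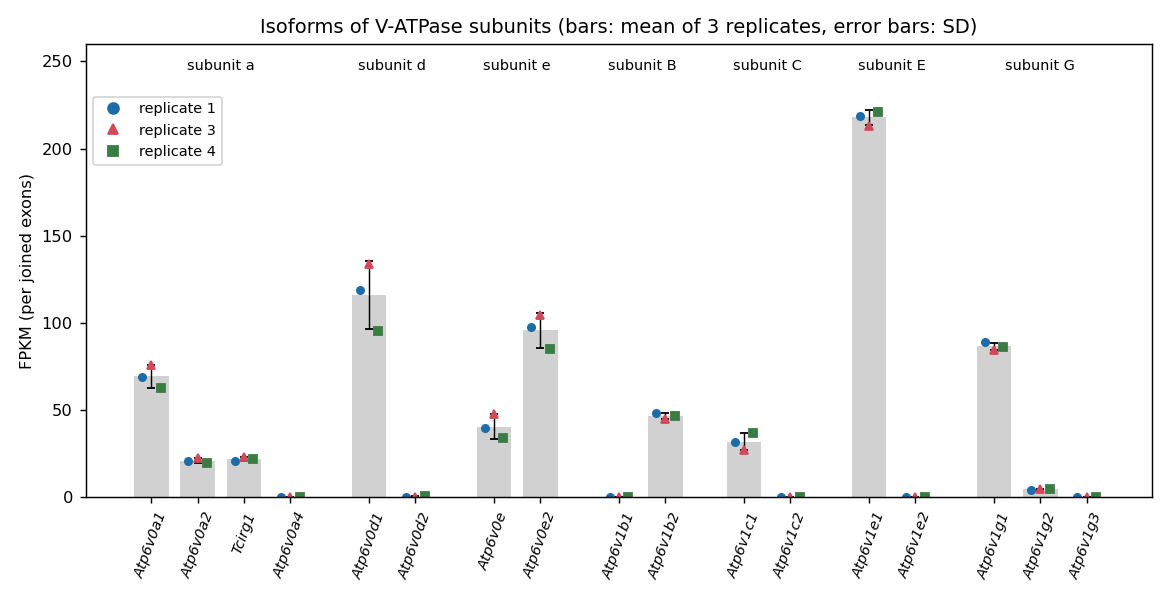
FPKM of each gene of 7 V-ATPase subunit families; bars are means of the 3 libraries, error bars the SD, and points the single libraries. In the a and e families several genes are above 1 FPKM by a wide margin, and in the others 1 gene holds 94.8% or more of the sum.

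The e family was the one whose order turned on the length behind the value. *Atp6v0e2* held 70.3% ± 1.55 of the summed FPKM, at 2.44, 2.18 and 2.51 times *Atp6v0e*. Computed per longest transcript the ratio was 2.05, and per shortest full coding transcript it was 0.578. The gene model of *Atp6v0e* joins 3261 bases of exons while its shortest full coding transcript has 794, and that of *Atp6v0e2* has 1832 bases either way. Which form the reads came from cannot be told from a value per gene. The coding sequences, which have the same length, are printed here because they show how far reads of these genes can be told apart, with capitals marking bases that are identical in both (171 of 246, 69.5%).
Atp6v0e2: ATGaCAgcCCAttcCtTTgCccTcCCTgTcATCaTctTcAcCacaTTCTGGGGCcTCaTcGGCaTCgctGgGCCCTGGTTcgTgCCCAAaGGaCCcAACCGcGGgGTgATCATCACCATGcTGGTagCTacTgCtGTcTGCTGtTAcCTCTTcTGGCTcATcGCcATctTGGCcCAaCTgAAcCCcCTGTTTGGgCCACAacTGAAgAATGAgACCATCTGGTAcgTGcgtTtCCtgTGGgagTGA
Atp6v0e: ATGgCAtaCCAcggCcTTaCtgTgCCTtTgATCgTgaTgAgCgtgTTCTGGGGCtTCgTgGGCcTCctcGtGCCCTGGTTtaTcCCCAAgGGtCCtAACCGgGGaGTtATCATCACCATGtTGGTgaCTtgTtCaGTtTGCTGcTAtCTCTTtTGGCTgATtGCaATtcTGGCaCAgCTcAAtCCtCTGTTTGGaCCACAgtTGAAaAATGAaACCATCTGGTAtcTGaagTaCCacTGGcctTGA

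The longest run of identical bases between these genes was 12. In the other families the leading gene and the next were 55.8% to 73.7% identical over the coding sequence, and the longest identical run was 29 bases, in the a family.

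**Figure D3:**
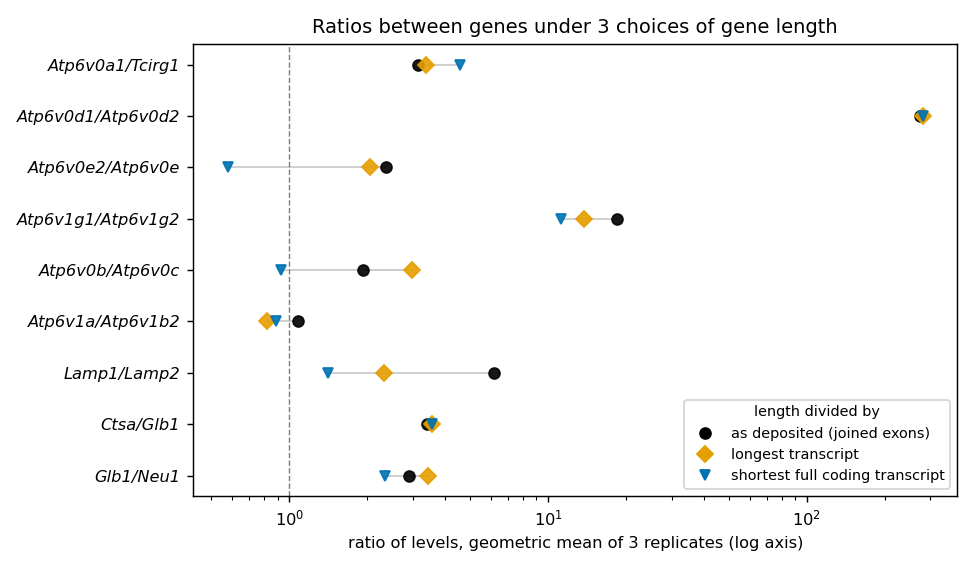
Geometric mean over the 3 libraries of the ratio of FPKM between gene pairs (log axis) under 3 gene lengths: all exons of the gene joined, the longest transcript and the shortest full coding transcript. The ratio of *Atp6v0e2* to *Atp6v0e* falls from 2.37 to 0.578 and that of *Atp6v0b* to *Atp6v0c* from 1.92 to 0.925.

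The lysosomal membrane proteins ranged from *Lamp1*, the highest of the 46 genes, to *Cln3*, the lowest of those measured. The place of *Cln3* depended on the gene length: per longest transcript it was at 8.87 FPKM, above *Idua* (7.60) and *Gla* (7.80), and per shortest full coding transcript at 11.9 FPKM, again above both (7.96 and 7.80). *Lamp1* (chr8:13159135-13175338), a heavily glycosylated protein of the lysosomal limiting membrane, read 496.44, 509.16 and 487.83 FPKM (498 ± 10.7), at percentile 99.7. *Lamp2* (chrX:35754534-35809631), its relative, read 82.52, 71.57 and 88.16 FPKM. *Lamp1* exceeded it 6.22 ± 0.81 times, with no overlap of the replicates, but the size of that ratio depended on length too, at 2.33 per longest transcript and 1.41 per shortest full coding transcript. *Scarb2*, which carries glucocerebrosidase to the lysosome, read 86.00, 82.01 and 87.68 FPKM. *Npc1*, the membrane exporter of cholesterol, read 28.37, 27.46 and 28.00 FPKM, and *Npc2*, the luminal carrier that hands cholesterol to it, 73.56, 75.46 and 69.53 FPKM. *Cln3* (chr7:133714721-133729331), the Batten disease gene, read 4.74, 5.66 and 4.34 FPKM (4.91 ± 0.677) and had the largest ratio of highest to lowest library of these proteins, 1.30. *Psap* (chr10:59740375-59765345), the precursor of the saposins that help lipid hydrolases reach their substrates, was the highest luminal protein at 413.55, 418.16 and 409.35 FPKM (414 ± 4.41). Its libraries lay within 1.02 of each other as deposited and within 1.18 after GC correction. *Grn*, the precursor of granulins, read 153.29, 160.79 and 137.97 FPKM.

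The 11 glycosidases, which take sugars off glycoproteins, glycolipids and glycosaminoglycans, had a median of 35.6 FPKM, and 7 of them were in the top decile. *Hexa* (chr9:59387474-59412914), the α subunit of β-hexosaminidase and the Tay-Sachs disease gene, stood far above the rest at 308.27, 353.39 and 268.66 FPKM (310 ± 42.4). *Gaa*, acid α-glucosidase, read 57.09, 60.83 and 43.17 FPKM, and *Naglu*, which works on heparan sulfate, 43.27, 47.03 and 30.50 FPKM. The α-fucosidase gene *Fuca1*, the α-mannosidase gene *Man2b1* and the β-glucuronidase gene *Gusb* had means of 53.4, 41.2 and 35.6 FPKM. *Glb1* (chr9:114310194-114383495), β-galactosidase, read 31.16, 32.60 and 27.79 FPKM. A second Ensembl gene carries the symbol *Glb1* at a mean of 3.20 FPKM, and 5.6% of the exons of the gene overlap it on the same strand, so a small part of its reads may be counted apart. *Glb1*, the sialidase *Neu1* and the protective protein *Ctsa* form one multienzyme complex. *Neu1* read 10.81, 11.07 and 9.69 FPKM, so that *Glb1* exceeded it 2.88, 2.94 and 2.87 times, and *Ctsa*, not among the 46, was 3.41 ± 0.0993 times *Glb1*. Exons of other genes lie opposite 17.4% of the exons of *Ctsa*. The lowest glycosidase was *Idua* (chr5:109089350-109113576), the Hurler syndrome gene, at 6.34, 6.16 and 6.67 FPKM, next to *Gla*, the Fabry disease gene, at 7.80, 7.15 and 7.79 FPKM. *Manba*, the β-mannosidase, was at 12.58, 11.27 and 12.29 FPKM.

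None of the 3 sulfatases was in the top decile. *Ids*, the Hunter syndrome gene, read 18.78, 17.84 and 19.83 FPKM, *Arsa*, which cleaves sulfatide, 15.37, 15.49 and 12.59 FPKM, and *Arsb*, which works on dermatan sulfate, 11.58, 11.11 and 10.77 FPKM. Exons of other genes lie opposite 18.8% of the exons of *Arsa* and 45.3% of those of *Arsb*, and whether counting used the strand is not given in the sources used here. All 4 lipid hydrolases and both peptidases were in the top decile. *Lipa*, lysosomal acid lipase, read 161.58, 157.90 and 171.42 FPKM, *Asah1*, acid ceramidase, 127.10, 109.19 and 142.04 FPKM, *Smpd1*, acid sphingomyelinase, 52.87, 61.53 and 43.47 FPKM, and *Ppt1*, a palmitoyl-protein thioesterase, 46.98, 43.95 and 50.68 FPKM. As deposited, the replicates of *Lipa* and *Asah1* did not overlap, and neither did those of *Asah1* and *Smpd1*, while those of *Smpd1* and *Ppt1* did. Gene length mattered here too. Per longest transcript the mean of *Asah1* was 154 FPKM against 164 for *Lipa*, and that of *Ppt1* was 67.4 against 52.6 for *Smpd1*. *Lgmn*, the asparaginyl endopeptidase legumain, read 95.85, 99.79 and 93.56 FPKM and *Tpp1*, a tripeptidyl peptidase, 82.91, 75.84 and 90.85 FPKM. Over the whole order of the 46 genes by mean level as deposited, 13 of the 45 pairs of neighbours had replicates that did not overlap. The order of most neighbours is therefore not set by these data. Replicates that do not overlap do not set it either where it turns on gene length. *Arsa* was above *Manba* as deposited (14.5 against 12.0 FPKM), but below it per longest transcript (15.3 against 22.9).

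The other genes of the pathway were read from 5 further lists of 52 genes in all. Of these, 45 reached 1 FPKM in every replicate, 12 were in the top decile, and their median was 13.7 FPKM at percentile 80.7. Of 7 further subunit isoforms, 3 reached 1 FPKM. The 8 assembly and regulatory factors of the pump all did, at a median of 8.64 FPKM, from *Rogdi* (20.02, 23.53 and 18.37 FPKM) to *Dmxl1* (2.76, 1.86 and 3.03 FPKM), both of the RAVE-like assembly complex. Of 21 further hydrolases and activators 20 did and 6 were in the top decile. *Ctsa* led at 103.47, 110.56 and 97.73 FPKM, and *Acp5*, the tartrate-resistant phosphatase of osteoclasts, was at 0.07, 0.04 and 0.03 FPKM. Of 10 further membrane proteins 8 did, with *Laptm4a* at 320.87, 330.21 and 309.24 FPKM and *Lamp3*, known from dendritic cells, at 0.02, 0.01 and 0.04 FPKM. All 6 genes for the sorting of lysosomal proteins did, at a median of 40.5 FPKM, from *Sort1*, the gene of sortilin, a receptor that works without mannose 6-phosphate, at 113.37, 112.65 and 91.31 FPKM to *Nagpa*, which uncovers the mannose 6-phosphate tag, at 9.75, 9.93 and 7.68 FPKM.

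**Figure D4:**
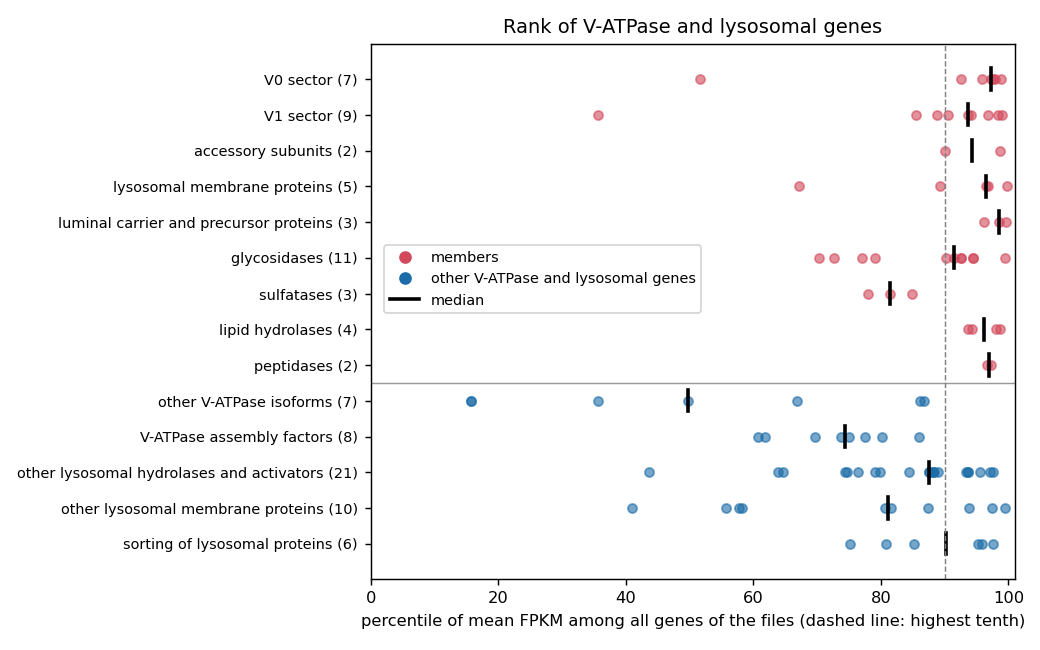
Percentile of the mean FPKM among all 22698 genes for each gene of the 9 functional groups (upper rows) and of the 5 further lists (lower rows); black bars are medians and the dashed line marks the top decile. Medians lie from 81.5 (sulfatases) to 98.5 (luminal proteins) in the upper rows and from 49.8 (further isoforms) to 90.2 (sorting of lysosomal proteins) in the lower.

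Over the 44 measured genes the coefficient of variation between libraries ran from 1.07% to 21.9%, with a median of 8.01% against 11.4% over all genes at 1 FPKM or more. Of the 44 measured genes, 2 differed by over 1.5-fold between their highest and lowest library, *Atp6ap2* (1.57) and *Naglu* (1.54), where 18.8% of all genes did. Neither comparison was matched for level. The median was 51.6 FPKM over the 46 genes and 11.2 FPKM over all genes at 1 FPKM or more. The 2 genes over 1.5-fold apart differed in GC content, with *Atp6ap2* at 40.5% GC and a log2 ratio of replicate 3 to replicate 4 of −0.65, and *Naglu* at 59.8% GC and 0.62. After GC correction the ratios were −0.04 and 0.17, and neither gene was over 1.5-fold apart (1.07 and 1.17). *Atp6v0e* then was, at 1.74 with the GC content of its longest transcript, where 5.6% of all genes were. *Lamp2* had the lowest GC content of the measured genes, 38.7%, and its libraries lay within 1.23 of each other as deposited and within 1.24 after GC correction. Its log2 ratio of replicate 3 to replicate 4 changed sign with the correction, from −0.30 to 0.31.

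The V0 and V1 sectors differed in the library in which they were highest. All 6 measured V0 subunits were higher in replicate 3 than in replicate 4, and 1 of 8 V1 subunits was (*Atp6v1f*), where 51.3% of all genes were. The median log2 ratio of replicate 3 to replicate 4 was 0.46 in V0 and −0.13 in V1. Summed over the sector, V0 read 625.7, 715.9 and 530.2 FPKM and V1 637.3, 604.8 and 628.6 FPKM in replicates 1, 3 and 4. The sectors also differed in GC content, with medians of 53.6% and 46.9%. After GC correction the medians were 0.20 and 0.09, and 6 of 6 and 5 of 8 subunits were higher in replicate 3, where 50.3% of all genes were. *Atp6v0e* stood off the GC trend, with a log2 ratio of 0.50 at 44.8% GC and 0.80 after correction. That GC value is of its longest transcript, and its shortest full coding transcript has a higher one. Over all 44 measured genes, 23 were highest in replicate 3, 13 in replicate 4 and 8 in replicate 1, where 45.3%, 43.4% and 11.3% of all genes were.

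**Figure D5:**
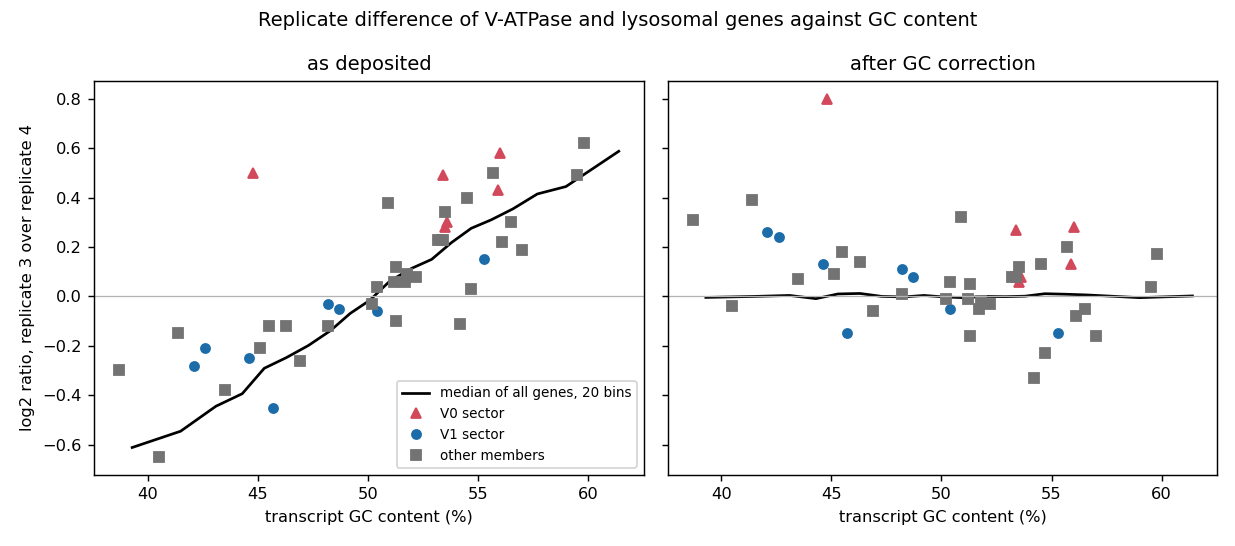
Log2 ratio of replicate 3 to replicate 4 against the GC content of the transcript in percent, as deposited (left) and after GC correction (right). Red triangles are V0 genes, blue circles V1 genes and grey squares the other genes of the group, and the line is the median of all genes at 1 FPKM or more in 20 GC bins; most points lie near the line, and *Atp6v0e* lies above it at 0.50 and 0.80.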

How the data were processed

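RNA of untreated melan-a cells was sequenced in 3 libraries (TruSeq Stranded mRNA, Illumina). The authors trimmed the first 10 bases, aligned reads to mm9 with STAR 2.3.0e, removed rRNA reads and counted on Ensembl 67 with HTSeq 0.5.3p3; CASAVA 1.8.2, SAMtools and edgeR are also named in the submitters' processing notes. They deposited FPKM values with 2 decimals after TMM scaling (trimmed mean of M values), and how counts became FPKM is not given in the sources used here. Genes at a low level gave steps of whole reads, and those steps gave the library sizes. They fitted whole reads better with the exons of a gene joined than with its longest transcript. That rests on 24, 39 and 12 genes with several transcripts in replicates 1, 3 and 4. Their mean distance from a whole read was 0.187, 0.148 and 0.108 with joined exons, and 0.219, 0.266 and 0.243 with the longest transcript.

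The values were used as deposited. With 1 condition no groups were compared. Levels are means ± SD over 3 replicates, and genes were ranked among all 22698. Positions, lengths and GC content came from the mm9 annotation of Ensembl 65, promoters from RefSeq (GRCm38.p6). No coordinates were moved between builds. Coding sequences of the genes were searched in the mm9 genome for copies of at least 97% identity over 80 bases with blastn 2.17.0. Named genes were those under 1 FPKM, those in isoform families, the highest, lowest and most variable gene of each group and the highest and lowest of each further list, and the other members are given by level. A marker list and a gene ratio are not reported here. Members and lists were chosen with earlier results of these data known. Floors, taken as 3 reads, cover counting error only. Alternatives were each replicate left out, rescaling, other minimums, a pseudocount of 0.1 FPKM, other gene lengths and a GC correction; the shortest coding transcript, the sum of both *Glb1* genes and the count of genes higher in replicate 3 than in replicate 4 were added after seeing the data. Scripts used Biopython 1.88, matplotlib 3.10.9, scipy 1.17.1, pandas 2.3.3, statsmodels 0.14.6 and numpy 2.4.6 under Python 3.11.15, and were tested on simulated data.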

Additional observations from a re-analysis of the deposited data

How the results depend on the processing

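FPKM values are relative, and the scaling sets their size: with each library rescaled to a sum of 1000000 the median level of the group was 137.0, and all 46 levels moved with it. Ranked only among genes at 1 FPKM or more, 20 of the 46 genes were in the top decile, and among genes above 0 the median percentile was 90.5. Leaving out 1 replicate gave a median level of 49.5 to 52.7 FPKM and 31 to 33 genes in the top decile. The share of *Atp6v0a1* was 66.9% per longest and 74.2% per shortest full coding transcript, that of *Atp6v0e2* 67.2% and 36.6%, the last with *Atp6v0e* leading, and that of *Atp6v1g1* 93.2% and 91.8%. With 0.1 FPKM added the leading B and C genes held 99.8% and 99.7%. The count of genes over 1.5-fold apart between libraries was 1 after GC correction, *Atp6v0e*, which was not one of the 2 before it, where 5.6% of all genes were that far apart, and without a replicate it ran from 0 to 2, being 0 without replicate 3 or without replicate 4. A single level was called moved when it changed by more than its SD over the 3 libraries. The level of *Glb1* moved when both of its Ensembl genes were summed. With 3 libraries, leaving out 1 or taking the median cannot shift a mean by more than its SD. Those settings therefore do not check the single levels. Depth limits the second isoforms at or below 3 reads.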

Other observations

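The label describes the cells as melanocytes from Ink4a-ARF-/- mice. *Cdkn2a*, the gene that encodes both proteins, was at 19.24, 16.49 and 24.32 FPKM in replicates 1, 3 and 4. A value per gene does not show which exons were read, so it does not check that label.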
